A study of Mus with 3 samples.

Results

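Potassium channel genes were followed across the hippocampus of 3 groups of mice. They were taken as all genes whose name on the array starts with Kcn, leaving out Kcne2, Kcnj13 and Kcnj10, which gave 92 of the 23756 gene names. The 92 comprised 40 genes for pore-forming subunits of voltage-gated (Kv) channels, 12 for their auxiliary subunits, 12 for channels gated by calcium or sodium and their partners, 13 for inward rectifiers and 14 for channels with a doubled pore domain. The remaining name, Kcnq1ot1, belongs to an antisense RNA that is not a channel.

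Potassium channels let potassium leave the cell along its gradient, which sets the resting potential, ends the action potential and limits repetitive firing. In hippocampal neurons, Kv1 channels act mainly in axons, Kv4 channels carry the fast-inactivating A-type current of dendrites, Kv3 channels allow fast spiking of interneurons, and KCNQ channels carry the M-current that muscarinic acetylcholine receptors inhibit. Inward rectifiers and leak channels hold the membrane near rest in neurons and glia, and calcium-activated channels produce the afterhyperpolarization that follows a spike.

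The groups consisted of 10 male mice each of the Slc:ddY stock, aged 6 weeks, dosed by gavage over 15 days. ASO mice were given shochu oil at 2000 mg/kg/day and, on day 8, 10 nmol of Aβ25-35 in 5 µL into the cerebral ventricles. Aβ25-35 is a toxic fragment of amyloid β. ACO mice were given distilled water orally and the same peptide injection. NCO mice were given distilled water orally and 5 µL of distilled water on day 8, by a route that the labels do not spell out. ASO was taken as injected from the design text, since the protocol calls the second injected group by a name that no sample carries. Hippocampi were taken after a Y-maze test on day 16, and the RNA of a group (5 sets of 2 mice) was pooled onto 1 one-colour Agilent array. ASO against ACO addresses the oil in injected mice, ACO against NCO the peptide, and ASO against NCO both together. These comparisons share arrays, so their values are given side by side and are not independent. There were no replicates, so no test was possible, and every difference below is one between pools.

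Signals are fluorescence intensities, corrected for background and scaled so that each array has the same 75th percentile. Differences are on the log2 scale after 50 was added to each signal, the first-named array minus the second, so 1.2-fold is a difference of 0.26. The added 50 draws the differences of dim probes toward 0. Each gene is given by its brightest probe that passed a signal to noise score of 2.6 on all 3 arrays, and 53.7% of 39429 probes passed on ASO, 51.7% on ACO and 50.9% on NCO. Between repeated spots of the same probe on an array pair, the SD of the difference had a median of 0.094 for ASO against ACO, 0.098 for ASO against NCO and 0.085 for ACO against NCO. This spread covers spot error and no difference between mice. Brightness also depends on the probe, so a difference in signal between genes is one of probe brightness and not of RNA level. In pooled tissue, fewer cells of a type and less RNA per cell cannot be told apart.

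Of the 92 genes, 57 passed on all 3 arrays (62.0%, against 55.6% of all gene names), 10 passed on 1 or 2 arrays and 25 passed on none. The 57 comprised 27 of 40 Kv pore-forming genes, 8 of 12 Kv auxiliary genes, 7 of 12 calcium- or sodium-activated genes, 7 of 13 inward rectifiers, 7 of 14 genes with a doubled pore domain, and Kcnq1ot1. Their mean signal ran between 77.4 and 8037, with a median of 481, against 762 over all genes measured. Kcnk13, Kcnt2 and Kcnrg lay just inside the limit, with lowest scores of 2.83, 3 and 3.06, and Kcnab2, Kcns1 and Kcnh1 lay just outside it, with 2.56, 2.4 and 2.3. The 25 genes that passed on no array were Kcna5, Kcna10, Kcng3, Kcng4, Kcnh6, Kcnh8, Kcnq1 and Kcnv2 among pore-forming Kv genes, Kcne1 and Kcne4 among auxiliary genes, Kcnmb1, Kcnmb3, Kcnn1 and Kcnn4 among calcium-activated ones, Kcnj1, Kcnj2, Kcnj5, Kcnj8 and Kcnj15 among inward rectifiers, and Kcnk5, Kcnk7, Kcnk9, Kcnk15, Kcnk16 and Kcnk18 among leak channels. Several of these, such as Kcnj1 of the kidney tubule and Kcnq1 of the heart, are best known from other organs. Failing the limit bounds a signal and does not show that a gene is silent.

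**Figure D1:**
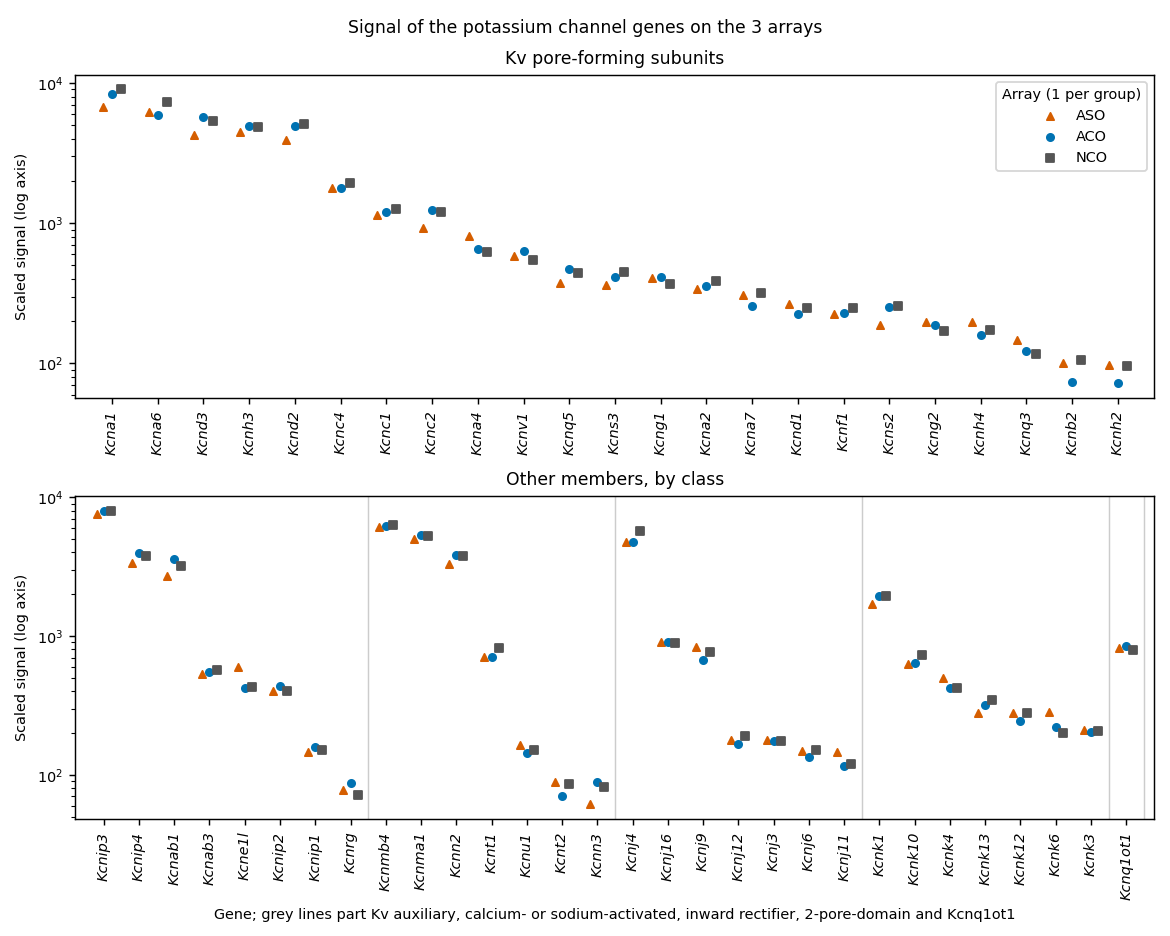
Signal (arbitrary fluorescence units, log axis) of 53 of the 57 potassium channel genes measured on all 3 arrays, 1 point per array for ASO, ACO and NCO, grouped by channel class. The points of a gene lie close together beside the range over genes, which spans mean signals of 77.4 for Kcnn3 to 8037 for Kcna1.

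In peptide-injected mice given the oil, 7 of the 57 genes were at least 1.2-fold higher than in those given water (12.3%, against 10.1% of the 13206 genes measured) and 8 were at least 1.2-fold lower (14.04%, against 9.44%). Both shares were near those of all genes, and the median difference was -0.012, against -0.015 over all genes. The 8 lower genes were Kcnd3, Kcnc2, Kcnab1, Kcns2, Kcnd2, Kcnn3, Kcna1 and Kcnq5, and the higher genes included Kcne1l, Kcnk6, Kcnj9, Kcna4, Kcnb2 and Kcnh2. Kcnab1, Kcnd2, Kcns2 and Kcne1l stayed at least 1.2-fold apart under all 10 other ways of processing. Kcnab1, Kcnd2 and Kcns2 had 1 measured probe each. For them, dropping or tightening the filter on dim probes, averaging over probes and leaving out shifted spots returned the same value. Those alternatives therefore did not test them. The other 11 dropped below 1.2-fold in at least 1 of the 10. Spot means in place of medians ended this size for Kcnd3 (-0.25), Kcnc2 (-0.22), Kcna1 (-0.19), Kcna4 (0.17), Kcnk6 (0.12) and Kcnj9, and turned Kcnb2 and Kcnh2 to the other side of 0 (-0.066 and -0.17). None of the 57 was 1.5-fold apart, where 1.65% of all genes were higher and 0.28% lower by that size.

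Between ASO and NCO, 4 of 57 genes were at least 1.2-fold higher (7.02%, against 10.3% of all genes) and 7 were at least 1.2-fold lower (12.3%, against 8.39%), with a median of -0.043, against -0.016 over all genes. The higher genes included Kcne1l, Kcnk6 and Kcna4, which were also on the higher side against ACO. The 7 lower genes were Kcna1, Kcnd2, Kcns2, Kcnc2, Kcnd3, Kcns3 and Kcnk13. Kcna1, Kcnc2, Kcnd2 and Kcne1l kept this size under all 10 alternatives. Kcna1, Kcnc2 and Kcnd2 had 1 measured probe each, so here too some alternatives returned the same value by construction. The remaining 7 genes fell below 1.2-fold in at least 1, and Kcna4 came to 0.15 once its neighbouring spots were corrected for. The ASO array is common to both comparisons. None of the 57 was 1.5-fold apart between ASO and NCO, where 1.67% of all genes were higher and 0.363% lower by that size.

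Between ACO and NCO, none of the 57 genes was at least 1.2-fold higher (0%, against 2.78% of all genes) and 3 were at least 1.2-fold lower (5.26%, against 2.7%). The 3 were Kcnb2, Kcna6 and Kcna7, and the median was -0.022, against 0.0051 over all genes. Kcna6 kept its size under all 10 alternatives, and Kcnb2 and Kcna7 did not. None of the 57 was 1.5-fold apart here, where 0.204% of all genes were higher and 0.212% lower by that size. The nearest genes within 1.2-fold were Kcnv1 above 0, at 0.19, and Kcnh2 below 0, at -0.25.

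**Figure D2:**
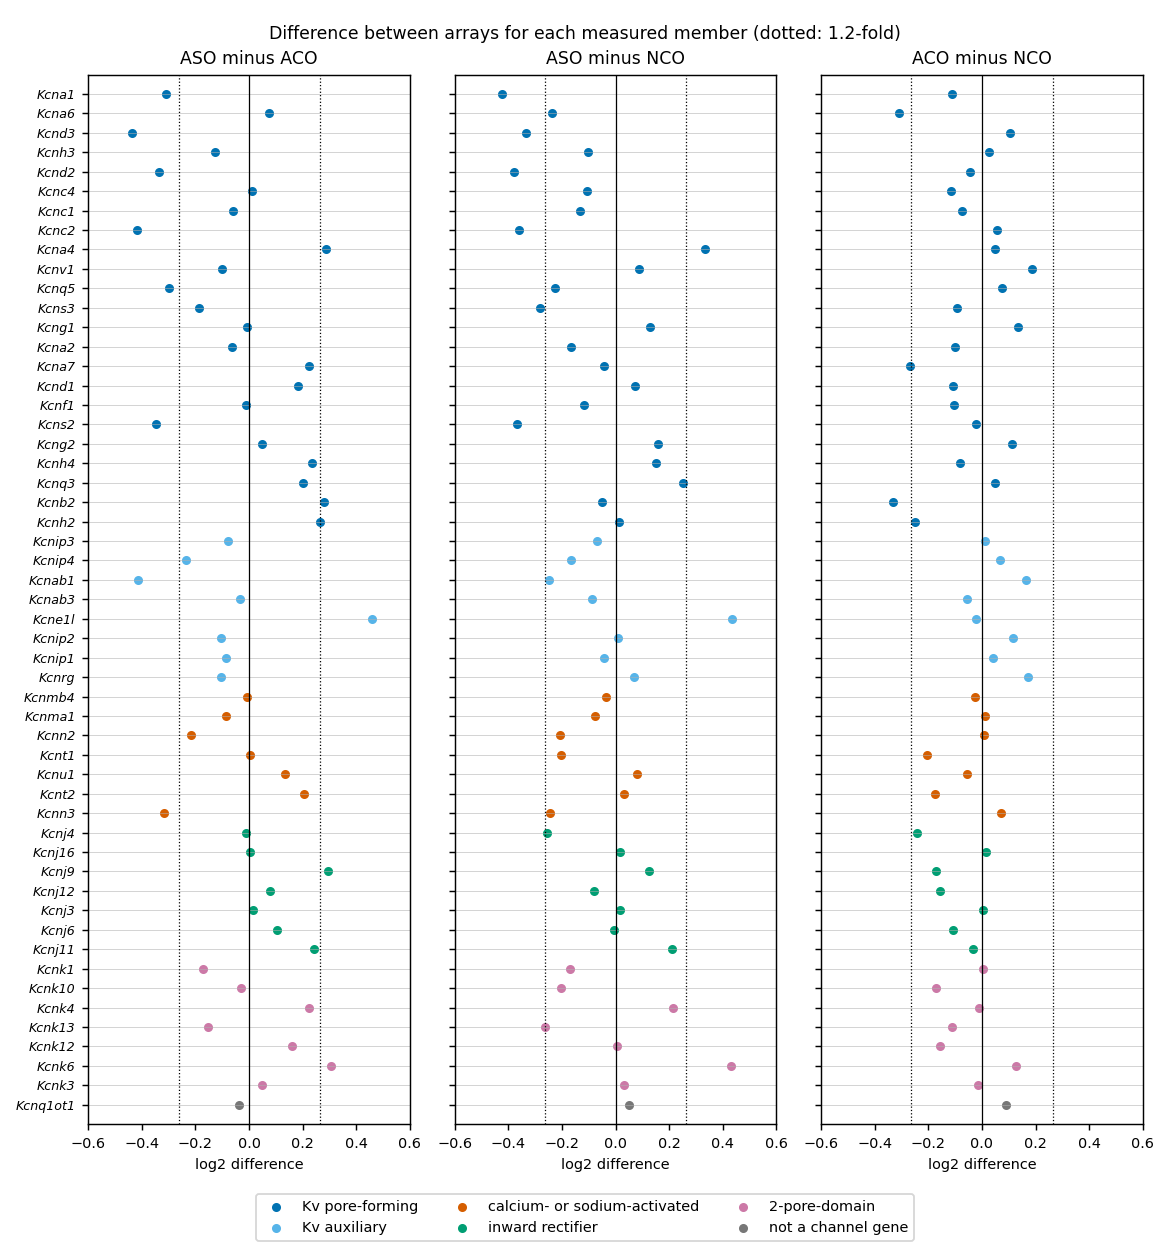
Log2 differences of 53 of the 57 measured potassium channel genes for ASO minus ACO, ASO minus NCO and ACO minus NCO, 1 point per gene, grouped by channel class, with lines at 1.2-fold. ASO minus ACO reaches -0.44 for Kcnd3 and 0.46 for Kcne1l, and ACO minus NCO has the narrowest spread, -0.33 to 0.19.

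**Figure D3:**
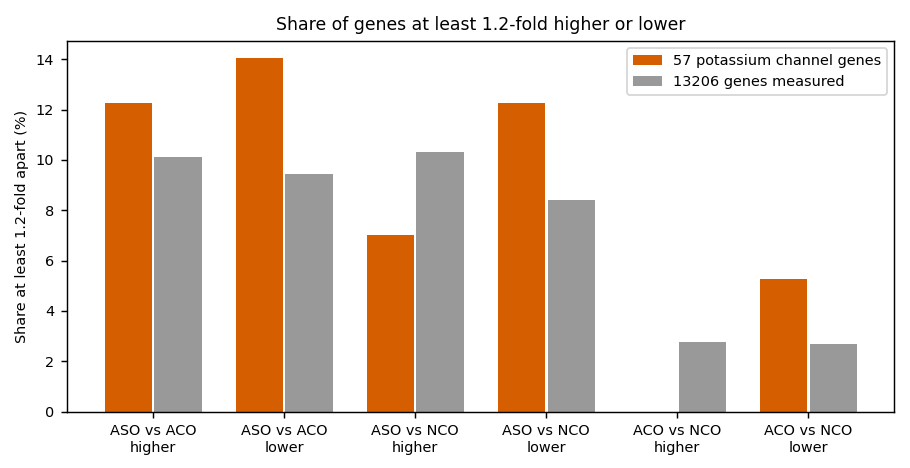
Percent of genes at least 1.2-fold higher or lower in each comparison, bars for the 57 potassium channel genes beside bars for all 13206 genes measured. Potassium channel genes lie above all genes in 4 of the 6 pairs of bars and below in 2, and 1 bar is 0 (ACO against NCO, higher).

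Among the Kv1 family, 5 of 8 genes were measured and they did not go one way. Kcna1, a subunit of axonal low-threshold channels whose mutation causes episodic ataxia in people, gave a signal of 6726 on ASO, 8356 on ACO and 9029.7 on NCO. It was lowest on ASO, with differences of -0.31 against ACO and -0.42 against NCO. Kcna4, which adds fast inactivation to axonal channels, gave 804 on ASO, 651 on ACO and 628 on NCO. It was highest on ASO, by 0.29 over ACO and 0.33 over NCO, the opposite side from Kcna1. Correction by surrounding spots left 0.14 and 0.15 for Kcna4, and spot means left 0.17 and 0.25, all within 1.2-fold. Kcna6, another delayed rectifier subunit, gave 6255 on ASO, 5936 on ACO and 7373 on NCO. Its NCO signal was the highest, with ASO at -0.24 and ACO at -0.31 against it. Kcna7, better known from muscle, gave 309 on ASO, 258 on ACO and 320.3 on NCO, so ACO was the lowest of the 3. Kcna2, the common partner of Kcna1 in axons, gave 341, 358 and 388 on ASO, ACO and NCO, differences of -0.063, -0.17 and -0.10 that lay within 1.2-fold.

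The Kv4 genes carry the A-type current, and 2 of the 3 were lower on ASO than on either other array. Kcnd2, the main A-type subunit of pyramidal cell dendrites, gave 3892 on ASO, 4927 on ACO and 5082 on NCO. Kcnd3, its close relative, gave 4246 on ASO, 5769 on ACO and 5359 on NCO. On both probes the ASO signal was the lowest, by -0.34 and -0.44 against ACO and by -0.38 and -0.33 against NCO. ACO and NCO were close for both, at -0.044 and 0.11. Kcnd1, a minor relative, gave 264, 226 and 248 on ASO, ACO and NCO and lay on the other side of 0 against ACO, at 0.18.

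All 4 Kv3 genes, whose channels repolarize quickly enough for fast spiking, were measured. Kcnc2 gave 919 on ASO, 1245 on ACO and 1194 on NCO. Its ASO signal was the lowest, at -0.42 against ACO and -0.36 against NCO. Kcnc4, the brightest Kv3 probe, gave 1782, 1769.7 and 1922 on the 3 arrays, and Kcnc1 gave 1147, 1198 and 1264, with no difference past 1.2-fold on these probes.

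Kv2 channels are delayed rectifiers clustered on neuronal cell bodies. The dim Kcnb2 probe gave 100.1 on ASO, 73.5 on ACO and 105 on NCO. ACO was thus the lowest of the 3, by 0.28 as ASO minus ACO and -0.33 as ACO minus NCO. With spot means these were -0.066 and -0.044. The authors' deposited table, a linear function of the same foreground medians, gives Kcnb2 66 on ASO, 51.6 on ACO and 75.8 on NCO.

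Silent Kv subunits form no channel alone and modify Kv2 channels by joining them, and 6 of 10 of them were measured. Kcns2 gave 188 on ASO, 253 on ACO and 258 on NCO. It was lowest on ASO, at -0.35 against ACO and -0.37 against NCO, while ACO and NCO were nearly alike. Kcns3, known for its place in fast-spiking interneurons, gave 359.7 on ASO, 416 on ACO and 448 on NCO, and its ASO signal was again the lowest. Its differences were -0.19 against ACO and -0.28 against NCO. The other 4 silent subunits, Kcnf1, Kcng1, Kcng2 and Kcnv1, stayed within 1.2-fold in all 3 comparisons, and their ASO minus ACO differences ran between -0.10 and 0.047. Kcnv1 gave 585, 629.7 and 547 on ASO, ACO and NCO.

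Of the KCNQ family, 4 of 5 genes were measured, and the M-current subunits lay on both sides of 0. Kcnq3, an M-current subunit, gave 148 on ASO, 122 on ACO and 116 on NCO. It was highest on ASO, by 0.20 over ACO and 0.25 over NCO, within 1.2-fold. The difference from NCO was 0.040 with spot means and 0.084 with correction by surrounding spots. Kcnq5, which also contributes to the M-current and the afterhyperpolarization of hippocampal pyramidal cells, gave 374 on ASO, 471 on ACO and 445 on NCO. It was lowest on ASO, at -0.30 against ACO and -0.22 against NCO.

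In the ether-a-go-go family, 3 of 8 genes were measured. Kcnh3, a forebrain channel, gave 4495 on ASO, 4917 on ACO and 4829 on NCO, within 1.2-fold throughout. Kcnh2, the ERG channel known for its part in cardiac repolarization, had a dim probe at 97.1 on ASO, 72.6 on ACO and 95.9 on NCO. Its ACO signal was the lowest, so ASO minus ACO was 0.26 and ACO minus NCO -0.25. With spot means ACO was no longer the lowest, at -0.17 for ASO minus ACO and 0.032 for ACO minus NCO. The authors' deposited table, made from the same spot readings and so no second measurement, gives Kcnh2 67.8 on ASO, 50.6 on ACO and 71.8 on NCO. Kcnh4 gave 197, 159.9 and 172 on ASO, ACO and NCO, at 0.24 for ASO minus ACO.

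Auxiliary Kv subunits were above 0 in 1 of 8 for ASO against ACO, with a median of -0.095, against 46.6% of all genes and a median of -0.015. Of the 7 below 0, Kcnab1 passed 1.2-fold and the others were between -0.032 (Kcnab3) and -0.24 (Kcnip4). Kcnab2 is not among the 8, since it failed the limit on NCO. It passed on ASO and ACO, where its difference was 0.27, past 1.2-fold on the other side from Kcnab1. Kcnab1, a cytoplasmic beta subunit that inactivates Kv1 channels and whose loss impairs learning in mice, gave 2695 on ASO, 3604 on ACO and 3206 on NCO. The ASO signal was the lowest and the ACO signal the highest, with ASO at -0.41 against ACO and -0.25 against NCO. The 4 KChIP genes encode calcium-binding partners that raise the surface number of Kv4 channels. All 4 were below 0 in ASO against ACO, by -0.078 (Kcnip3) to -0.24 (Kcnip4). Kcnip3, Kcnip1 (-0.086) and Kcnip2 (-0.11) lay near the median spot SD of 0.094. Kcnip1, printed at 10 spots, had 3 of them above 0, with a spot SD of 0.125. Kcnip4 gave 3339.7 on ASO, 3939.6 on ACO and 3755 on NCO. Kcnip3, whose protein also binds presenilins and acts as a transcriptional repressor, gave 7583 on ASO, 8009 on ACO and 7947 on NCO. Kcnip2 gave 404, 439 and 401 and Kcnip1 gave 145, 158 and 151 on ASO, ACO and NCO. In ASO against NCO, 3 of the 4 were below 0 and none passed 1.2-fold.

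Kcne1l is an older name of Kcne5, which encodes a small single-pass subunit that dampens Kv channels. Its signal was 595 on ASO, 420.0 on ACO and 428 on NCO. ASO stood above both others, by 0.46 over ACO (1.37-fold) and 0.43 over NCO (1.35-fold), while ACO and NCO differed by -0.023. A second, dimmer probe gave 137 on ASO, 84.0 on ACO and 82.0 on NCO, differences of 0.48, 0.50 and 0.021. Both Kcne1l probes thus put ASO at least 1.2-fold above ACO and NCO. Kcnrg, which hinders Kv assembly, and Kcnab3 stayed within 1.2-fold, at 77.3, 86.8 and 71.4 and 534, 547 and 571 on ASO, ACO and NCO.

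**Figure D4:**
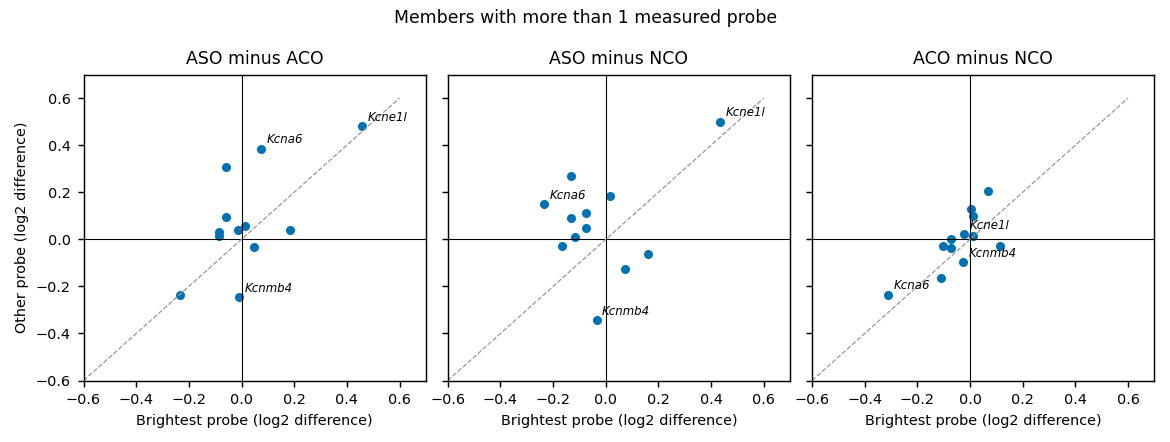
Log2 differences of the brightest probe (horizontal) against those of each other measured probe of the same gene (vertical), for 10 potassium channel genes with 12 other probes, 1 panel per comparison. The 2 Kcne1l probes lie together at 0.46 and 0.48 for ASO minus ACO, close to the dashed line of equal differences.

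Other measured probes of the 11 genes that had them fell on the same side of 0 as the brightest probe in 6 of 13 cases for ASO minus ACO, 5 of 13 for ASO minus NCO and 10 of 13 for ACO minus NCO. A second Kcna6 probe had signals of 269, 194 and 237 on ASO, ACO and NCO. It kept the lower side for ACO minus NCO, at -0.24, and was further above 0 in ASO minus ACO, at 0.38 against 0.075 on the brightest probe. In ASO minus NCO the probes lay on opposite sides of 0, at 0.15 against -0.24. For Kcnc1, 2 other probes gave 0.093 and 0.31 for ASO minus ACO, against -0.060 on the brightest, and 0.092 and 0.27 for ASO minus NCO, against -0.13. On 1 of these probes ASO was thus past 1.2-fold in both comparisons. The second Kcnip4 probe gave -0.24, close to the -0.24 of the first. A difference on 1 probe therefore describes that probe's target sequence, and 46 of the 57 genes had only 1 measured probe.

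Among calcium-activated channels, Kcnma1, the large-conductance BK pore that shortens spikes, gave 4998 on ASO, 5303 on ACO and 5267 on NCO, within 1.2-fold. Its neuronal beta subunit Kcnmb4 gave 6130.5 on ASO, 6165 on ACO and 6279.7 on NCO, differences of -0.0081, -0.034 and -0.026. A second, dimmer Kcnmb4 probe gave 569.7, 685 and 736, or -0.25 for ASO minus ACO and -0.34 for ASO minus NCO. Kcnn2, the small-conductance SK channel that restrains synaptic plasticity in CA1, was spotted 10 times on each array, with means of 3283 ± 505 on ASO, 3815 ± 556 on ACO and 3796 ± 554 on NCO (spot SD, 10 spots). ASO minus ACO was -0.22 with a spot SD of 0.055, and ASO minus NCO -0.21 with a spot SD of 0.077. All 10 spots were lower on ASO in both comparisons, so these differences under 1.2-fold exceeded the spot error of the array pair. ACO minus NCO was 0.0074, within its spot SD of 0.056. Kcnn3, a relative known from dopamine neurons, had a dim probe at 61.5 on ASO, 88.7 on ACO and 82.0 on NCO. It was lowest on ASO, at -0.32 against ACO and -0.24 against NCO.

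The sodium-activated channels Kcnt1 and Kcnt2 follow bursts of spikes with a slow outward current. Kcnt1 gave 708 on ASO, 706 on ACO and 822 on NCO, with NCO the highest. Kcnt2, a dim probe, gave 89.2 on ASO, 70.7 on ACO and 86.3 on NCO, with ACO the lowest at 0.21 for ASO minus ACO and -0.18 for ACO minus NCO, of which ACO minus NCO turned to 0.080 with spot means. Kcnu1, a channel known from sperm, gave 163, 145 and 152 on ASO, ACO and NCO. By its brightest probe, no gene of this class passed 1.2-fold other than Kcnn3 in ASO against ACO.

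**Figure D5:**
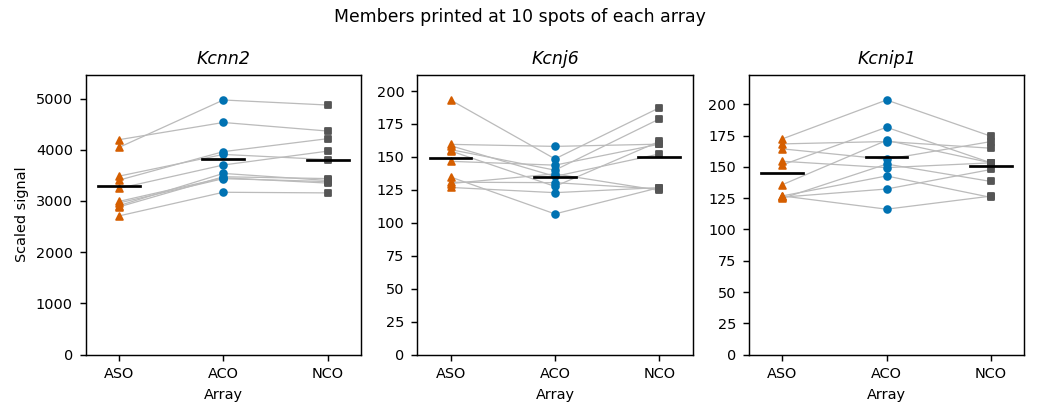
Signal (arbitrary fluorescence units, axis starting at 0) at each of the 10 spots of the probes for Kcnn2, Kcnj6 and Kcnip1 on ASO, ACO and NCO, with grey lines joining the same spot across arrays and a black bar at the mean. All 10 Kcnn2 spots are lower on ASO than on ACO and NCO, and lines of Kcnip1 run both up and down.

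Inward rectifiers were above 0 in 6 of 7 for ASO against ACO, with a median of 0.077, against 46.6% of all genes and a median of -0.015. Of these 6, Kcnj16 at 0.0025 and Kcnj3 at 0.015 were close to 0. In ACO against NCO, 2 of 7 were above 0, with a median of -0.11, against 51.9% of all genes and a median of 0.0051. Kcnj9, a subunit of the G protein-gated channels through which GABA-B and adenosine receptors quiet neurons, gave 834 on ASO, 672 on ACO and 762 on NCO. ASO was the highest and ACO the lowest. In the signals used here, ASO minus ACO, 0.29, was the only inward rectifier difference past 1.2-fold. The other G protein-gated genes gave less. Kcnj6 had 10 spots, with 149 ± 20.1 on ASO, 135 ± 14.3 on ACO and 150.3 ± 23.3 on NCO (spot SD). Its mean ASO minus ACO difference was 0.10, with 9 of 10 spots above 0. The SD among single spots was 0.12, which is not the error of the mean over 10 spots. Kcnj3 gave 178, 176 and 176 on ASO, ACO and NCO. In the authors' deposited table, Kcnj6 has values of 128.5 on ASO, 98.3 on ACO and 135.8 on NCO.

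Kcnj4, the brightest inward rectifier probe, encodes a strong rectifier at synapses of forebrain neurons, and gave 4750.4 on ASO, 4793 on ACO and 5679 on NCO. NCO was the highest, with ASO at -0.26 and ACO at -0.24 against it, just under 1.2-fold. Correction by surrounding spots left -0.15 for ASO minus NCO. Kcnj11, the pore of channels closed by ATP, which couple metabolism to excitability, gave 146 on ASO, 115 on ACO and 119 on NCO, highest on ASO by 0.24 over ACO and 0.21 over NCO. With spot means both turned to the other side of 0, at -0.090 and -0.041, and correction by surrounding spots left 0.084 and 0.020. The sulfonylurea receptor partners of that pore gave 5415, 6407 and 6028 (Abcc8) and 87.2, 67.8 and 87.4 (Abcc9) on ASO, ACO and NCO, within 1.2-fold. Kcnj16, a glial subunit, gave 909, 908 and 898 on the 3 arrays, and Kcnj12, a strong rectifier also known from heart, gave 178, 167 and 192.

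Leak channels with a doubled pore domain had a median of 0.047 in ASO against ACO, against -0.015 over all genes. Of the 7, 4 were above 0, near the 46.6% of all genes. Kcnk6, through which macrophages lose potassium on the way to inflammasome activation, gave 285 on ASO, 222 on ACO and 199 on NCO. ASO was the highest, by 0.30 over ACO and 0.43 over NCO. Kcnk13, a resting potassium channel of microglia, gave 280.4 on ASO, 317 on ACO and 347 on NCO. ASO was the lowest, at -0.15 against ACO and -0.26 against NCO, on a probe that passed the background limit on ASO by little. Microglial markers went the other way from Kcnk13: 9 of 10 were above 0 in ASO against ACO and 9 of 10 in ASO against NCO, with medians of 0.41 and 0.45. All 10 markers were measured, and their summed signal was 35472 on ASO, 27047 on ACO and 27407 on NCO. These markers lay on the same side as Kcnk6, and the part of microglial content in the Kcnk6 and Kcnk13 differences was not tested.

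Kcnk1, the brightest probe of this class, encodes a weak leak channel abundant in astrocytes, and gave 1711 on ASO, 1936 on ACO and 1930.3 on NCO. Kcnk4, a channel opened by membrane stretch and by lipids, gave 499 on ASO, 420.0 on ACO and 423 on NCO. ASO was the lowest for Kcnk1, at -0.17 against ACO, and the highest for Kcnk4, at 0.23, neither past 1.2-fold. Kcnk10, Kcnk12 and Kcnk3 had ASO minus ACO differences between -0.032 and 0.16, and ASO minus NCO differences between -0.20 and 0.032. Kcnq1ot1, the imprinted antisense RNA of the Kcnq1 locus, gave 826 on ASO, 850.0 on ACO and 796 on NCO. Its differences were -0.038, 0.051 and 0.090.

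For the 10 genes above background on 1 or 2 arrays, only a ratio of observed signals can be given where an array failed. That ratio is taken with nothing added, so it lies further from 1 than the same ratio with the 50 used above. It sets the brighter array, which passed, against the dim array's own signal, which was above the lowest passing signal there. The failing signal did not clear background by the score, so the ratio is an observed one and no lower limit. Kcnmb2, a BK beta subunit that inactivates the channel, passed on ACO only, with measured signals of 28.8, 49.8 and 37.4 on ASO, ACO and NCO. The observed ACO signal was 1.73-fold that on ASO and 1.33-fold that on NCO. Kcne3, another small Kv subunit, also passed on ACO only, at 30.7, 41.2 and 33.1, with ACO at 1.34-fold ASO and 1.25-fold NCO. Both lay at the dim end of the array. Kcnab2, the main brain Kv1 beta subunit, gave 83.3, 60.2 and 59.7, with ASO at 1.39-fold NCO, where it failed. Between ASO and ACO, where it passed on both, its difference with 50 added was 0.27. Kcnk2, a stretch- and lipid-gated leak channel, gave 87.2, 112 and 81.0, with ACO at 1.39-fold NCO. Kcnh7 gave 55.5, 39.4 and 61.8 and passed on NCO only, at 1.57-fold ACO. Kcna3, known from microglia and T cells, gave 52.5, 65.0 and 58.7, with ACO at 1.24-fold ASO. Kcnh1 gave 65.4, 78.3 and 79.9, with NCO at 1.22-fold ASO. These 7 genes were those with such a ratio of 1.2-fold or more. With 50 added, Kcne3 lay within 1.2-fold, at -0.18 for ASO minus ACO and 0.13 for ACO minus NCO. So did Kcna3 (-0.17 for ASO minus ACO), Kcnh1 (-0.17 for ASO minus NCO) and Kcnmb2 for ACO minus NCO (0.19). The other ratios named stayed past it. For Kcnh5, Kcnj14 and Kcns1 the ratios with nothing added were already under 1.2-fold.

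Of 40 genes that work with potassium channels or handle potassium but carry no Kcn name, 35 were measured. In ASO against ACO, 5 of these were at least 1.2-fold higher (14.3%, against 10.1% of all genes) and none lower (against 9.44%), with a median of -0.048. In ASO against NCO, 6 were higher (17.1%, against 10.3%) and 1 lower (2.86%, against 8.39%), with a median of -0.066, and in ACO against NCO none were higher (against 2.78%) and 2 lower (5.71%, against 2.7%), with a median of -0.027. Pex5l, which anchors HCN pacemaker channels in dendrites, gave 1073 on ASO, 633 on ACO and 686 on NCO. It was highest on ASO, by 0.72 over ACO and 0.61 over NCO, more than any Kcn gene. Hcn2, a pacemaker channel opened by hyperpolarization, gave 6715 on ASO, 4854 on ACO and 5000.4 on NCO, by 0.46 and 0.42 in the same direction. Hcn4 was not above background on all arrays. Atp1b2, a beta subunit of the sodium-potassium pump, was also higher on ASO, by 0.30 over ACO and 0.39 over NCO. The Kv1 anchor Dlg1 was lower on ASO than NCO, at -0.39. Dpp6, the transmembrane partner of Kv4 channels, gave 5622 on ASO, 6096 on ACO and 5950.0 on NCO. Its differences were within 1.2-fold, at -0.12, -0.081 and 0.035.

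Markers of hippocampal cell types also differed between the arrays. Dentate granule cell markers were below 0 in 9 of 9 measured genes for ASO against ACO, with a median of -0.32 and summed signals of 10035 on ASO, 12621 on ACO and 11188 on NCO. Calb1, the calcium buffer of granule cells, gave -0.49. The markers lay on the same side as Kcnd2, Kcnd3, Kcnab1, Kcna1, Kcnc2, Kcnq5, Kcns2 and Kcnn3. Those genes are listed because they were at least 1.2-fold lower in this comparison, so their side was set by that choice. In ACO against NCO, granule markers were above 0 in 7 of 9, with a median of 0.12. There Kcna1 (-0.11), Kcnd2 (-0.044) and Kcns2 (-0.022) were below 0 and the others listed were above. The part of granule cell content in those differences was not tested. For ASO against ACO, the other lists were as follows. CA1 and CA3 pyramidal markers had a median of 0.022 over 7 genes, interneuron markers 0.0021 over 8, and general neuronal markers 0.22 over 9. Astrocyte markers had a median of 0.10 over 10, oligodendrocyte markers 0.078 over 10 and endothelial and mural markers 0.083 over 8. Blood markers had a median of 0.18 over 5, and thalamus and habenula markers -0.0019 over 7. In ACO against NCO, oligodendrocyte markers were below 0 in 10 of 10, with a median of -0.19. Choroid plexus markers had a median of 0.50 there, with 9 of 10 above 0, and of -0.23 in ASO against ACO, with 9 of 10 below 0. The brightest marker of that list was the exception in both. Their summed signals were thus 21467 on ASO, 21561 on ACO and 25069 on NCO. Spike-in controls, which were not used for scaling, had medians of 0.48 for ASO minus ACO, 0.34 for ASO minus NCO and -0.14 for ACO minus NCO, so all differences here are relative to the 75th percentile of gene probes and not to the spike-ins.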

How the data were processed

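Hippocampal RNA of 3 groups (ASO, ACO and NCO) was measured on 1 one-colour array each, all on 1 slide, and groups were taken from the labels. The foreground and background intensities are the authors' GenePix Pro 6.1.0.4 readings of GenePix 4000B scans at 532 nm, left unnormalized, per the file headers. GenePix's score for signal to noise and its percent of pixels at saturation were deposited with them. The submitters' processing notes name Agilent Feature Extraction, whose role is not given in the sources used here. The authors' deposited value table holds intensities of 475 probes on a linear scale, of which 3 are potassium channel probes. For its probes printed at 1 spot, the only ones fitted, its columns follow a straight line of the foreground median within 0.05. The slopes were 0.893 on ASO, 0.917 on ACO and 1 on NCO. The medians over all its probes were 113, 97.4 and 117. Its direction is that of signal, and the reason for the slopes is unknown.

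Foreground medians were corrected by the local background median (limma 3.58.1 in R 4.3.3, normexp, offset 0), control spots were left out, and signals were scaled to 1 shared 75th percentile by factors of 0.991 on ASO, 0.949 on ACO and 1.06 on NCO. Spots of a probe were averaged after log2 of signal plus 50. Each array held 43020 gene spots. The number of arrays limits the precision of every value. Genes bore the array's names, and all 92 were found in the GRCm38.p6 RefSeq gene table, which served for names alone. Python 3.11.15, numpy 2.4.6 and pandas 2.3.3 served for the rest, and the steps were tested on simulated data.

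With 1 array a group, no p-value is given, and genes were counted at 1.2-fold and 1.5-fold beside all genes measured. The members and lists were chosen with earlier results of these data known. Named genes were the 8 highest and 8 lowest differences of each comparison and the brightest gene of each subfamily. Also named were genes on 1 or 2 arrays with a ratio of at least 1.2-fold. Genes whose second probe lay across 0 were named where the first was at least 1.2-fold apart. The results of some genes are not reported here, and their points are left out of the figures that show single genes, while counts and medians include them. The other members named complete their families and were chosen after their values were seen. No probe, promoter or protein sequence was used here.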

Additional observations from a re-analysis of the deposited data

How the results depend on the processing

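Alternatives were plain background subtraction, quantile normalization, 16 or 100 added before log2, no filter on dim probes or a score of at least 5, spot means, the mean over a gene's probes, correction by surrounding spots and leaving out spots with shifted surroundings. The median of potassium channel genes ran between -0.059 and 0.016 in ASO against ACO, between -0.079 and 0.0083 in ASO against NCO, and between -0.029 and -0.010 in ACO against NCO. Of 90 alternative values of medians and counts, 83 moved little and 7 moved by more. A median moved little if it shifted by less than the median spot SD of a probe, and a count if it stayed equal or within 1.5-fold. That limit is wide for medians this close to 0. In ASO against NCO, the median went from -0.043 to 0.0083 with no filter and still counted as moving little. In ASO against ACO, genes at least 1.2-fold higher numbered 4 with 100 added and 2 with spot means. In ASO against NCO, the higher genes numbered 1 with spot means and 2 with correction by surrounding spots, and the lower genes 4 with spot means. In ACO against NCO, the lower genes numbered 1 with 100 added, and 1 gene was higher with no filter, when all 92 genes entered. The larger added constant draws dim probes toward 0 by construction. For the other moves the cause was not tested. Spot means reversed Kcnb2 (-0.066) and Kcnh2 (-0.17) in ASO against ACO; the cause was not tested. Among 478 alternative values of single genes, 434 moved by less than the spot SD. Many of these could hardly move. For a gene with 1 measured probe, the filter settings, the mean over probes and leaving out shifted spots mostly return the main value. Of the 478, 6 turned sign, each with spot means. The other 4 were of genes within 1.2-fold: Kcnj11 in ASO against ACO (-0.090) and in ASO against NCO (-0.041), and Kcnh2 (0.032) and Kcnt2 (0.080) in ACO against NCO.

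The 1 array a group limits every value. Among the dimmest repeated probes (signal 58.0 to 246) the spot SD of a difference had a median of 0.11 in ASO minus ACO, 0.13 in ASO minus NCO and 0.11 in ACO minus NCO. No paired analysis was possible because each group had 1 array, and for the same reason no array could be left out.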
